A study of Mus musculus with 24 samples.

Results

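Wild-type and Act1 KO mice that had received Th17 cells were compared by the RNA of their spinal cords. The arrays were chosen by their sample titles, 5 from wild-type and 4 from Act1 KO Th17 recipients, 9 of the 24 arrays of the series, and each array, whose title names a mouse, was taken to hold the RNA of 1 mouse. All 17097 genes with a probe set of their own are described. In wild-type recipients, a broad set of immune genes stood at levels that were not reached in Act1 KO recipients, and in the latter no gene passed the limma test against naive Act1 KO mice.

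The recipients were female, 8 to 12 weeks old and irradiated with 500 rad before they were injected with Th17-polarized T cells specific for a peptide of myelin oligodendrocyte glycoprotein (MOG). According to the methods they were killed 12 days after transfer. The labels place the collection at the onset of symptoms, whereas the study's text places it at the peak of disease. Naive mice of both genotypes, 5 wild-type and 5 Act1 KO, were neither irradiated nor injected, so that a difference between recipients and naive mice holds irradiation and cell transfer together. The 5 wild-type recipients of Th1 cells entered the fit of all arrays and are not described. The labels give the genotype of the recipient mouse and name no cell type in which Act1 was removed. How the Act1 KO allele was made, and the genotype of the donors of the T cells, are not given for these mice in the sources used here, and the heading over the controls in the study's heat map of these arrays reads Act1+/− where the labels and the study's text say wild type. The study counts 5 mice in each group and its array methods 3 biological replicates, and 4 arrays of Act1 KO Th17 recipients were used here.

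This transfer is a model of experimental autoimmune encephalomyelitis (EAE), in which T cells that recognise myelin enter the spinal cord, draw in other leukocytes and cause paralysis. Th17 cells secrete IL-17A, which binds a receptor of the chains IL-17RA and IL-17RC. Act1, encoded by Traf3ip2, is the adaptor that this receptor recruits, and from there TRAF proteins lead to NF-κB and MAP kinases and to longer-lived messenger RNAs of chemokines. Astrocytes, microglia, oligodendrocyte precursors and blood vessels of the cord carry the receptor, and an array of whole cord reads their RNA together with that of neurons and infiltrating cells.

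Values are on the log2 scale of RMA, which brings all arrays to a common distribution. Array medians lay between 3.46 and 3.57, and 3.46 was used as the floor under which a level cannot be told from background. Where the mean of the dimmer group lay under the floor, the fold is given as "at least", against the floor itself. Differences are signed as Act1 KO minus wild-type recipients throughout, with the standard error (SE) from limma fitted on all arrays, and a gene was called at a Benjamini-Hochberg adjusted p under 0.05 over all 17097 genes. Among same-group arrays the correlation over genes was 0.990 to 0.996 for wild-type and 0.990 to 0.995 for Act1 KO recipients, and the median SD of a gene was 0.152 and 0.155. In bulk tissue, fewer cells of a type and less RNA per cell cannot be told apart, which holds for every marker below.

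The targeted gene was read first. Traf3ip2 had values of 5.14, 5.45, 5.51, 5.26 and 5.56 in the wild-type recipients and 5.67, 5.59, 5.83 and 5.67 in the Act1 KO recipients. Each Act1 KO recipient was above each wild-type recipient, by 0.31 on average (SE 0.12, limma adjusted p = 0.0358). In naive cords the mean was 4.29 ± 0.20 (SD, n = 5) in wild-type and 5.56 ± 0.24 (n = 5) in Act1 KO mice. The single probe set of Traf3ip2 therefore showed no loss of transcript in the mice labelled Act1 KO. Which part of the transcript the allele removes is not given in the sources used here, so this probe set does not check the genotype labels.

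Between the recipients, 7214 of 17097 genes were called, 42.2% of those tested. Of these, 3002 (17.6%) were lower and 4212 (24.6%) higher in Act1 KO recipients. The sizes were unequal in the opposite sense: 1258 genes were lower by 2-fold or more against 349 higher, 648 against 12 at 4-fold, and 378 against 0 at 8-fold, and 47 genes were lower by 64-fold or more. These counts take the measured differences without regard to the floor. The Act1 KO mean lay under it for 510 of the 1258 genes, 216 of the 378 and 33 of the 47, so that their folds are uncertain. The values of the groups did not overlap for 2581 genes that were lower (15.1%) and 3278 that were higher (19.2%). Counts of called or non-overlapping list members below are to be set against these shares of all genes. The split of small differences depended on the array scale. The median difference of all genes was 0.061. It was 0.329 when each array was centred on its median, with 2067 genes lower and 11264 higher, and 0.442 when arrays were centred on 70 ribosomal protein genes, with 1771 lower and 12633 higher. A further quantile normalization gave 2664 lower and 5416 higher (median 0.099). Centring adds the same amount to each gene's difference, so that a small negative one can turn. Where the sign of a called gene or the balance of a list did so, it is said beside it, and small differences of genes that did not pass are values without a direction.

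The levels of these genes in naive mice were set beside those of the recipients. For the 1258 genes that were lower by 2-fold or more, the median of the group means was 6.94 in wild-type recipients, 3.93 in Act1 KO recipients, 3.92 in naive wild-type and 3.89 in naive Act1 KO mice. For the 349 genes that were higher by 2-fold or more, the corresponding medians were 5.77, 7.11, 7.14 and 7.07. In both sets the wild-type recipients stood apart and the other 3 groups had nearly equal medians. On the first principal component of all 24 arrays, with 82.81% of the variance, wild-type Th17 recipients lay between 65.4 and 74.6, Act1 KO recipients between −47.5 and −46.4, and naive mice of both genotypes between −49.1 and −46.4.

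Each genotype was then compared with its own naive mice. Wild-type recipients differed from naive wild-type mice in 7436 genes (43.5%), 3069 higher and 4367 lower. Act1 KO recipients differed from naive Act1 KO mice in 0 genes by limma (0.0%), with 1070 genes at an unadjusted p under 0.05. The unmoderated test that the methods name gave 707 genes at an unadjusted p under 0.05 and 0 after Benjamini-Hochberg adjustment, and the exact Mann-Whitney test gave 521 and 0, the latter nearly fixed by its smallest possible p of 0.0159. In this comparison, 50% of all genes lay between −0.08 and 0.08, and the full range was −0.86 to 2.32. Of the 1258 genes, 1253 were called between wild-type recipients and naive wild-type mice, with a median of 2.06, and their median in Act1 KO mice was 0.00 with quartiles of −0.08 and 0.09. These comparisons share arrays with the one that chose the 1258 genes, and their values are given side by side only. The difference of the 2 responses was itself tested as an interaction term, which called 5479 genes (32.0%), 2365 with a lower response in Act1 KO mice and 3114 with a higher one.

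**Figure D1:**
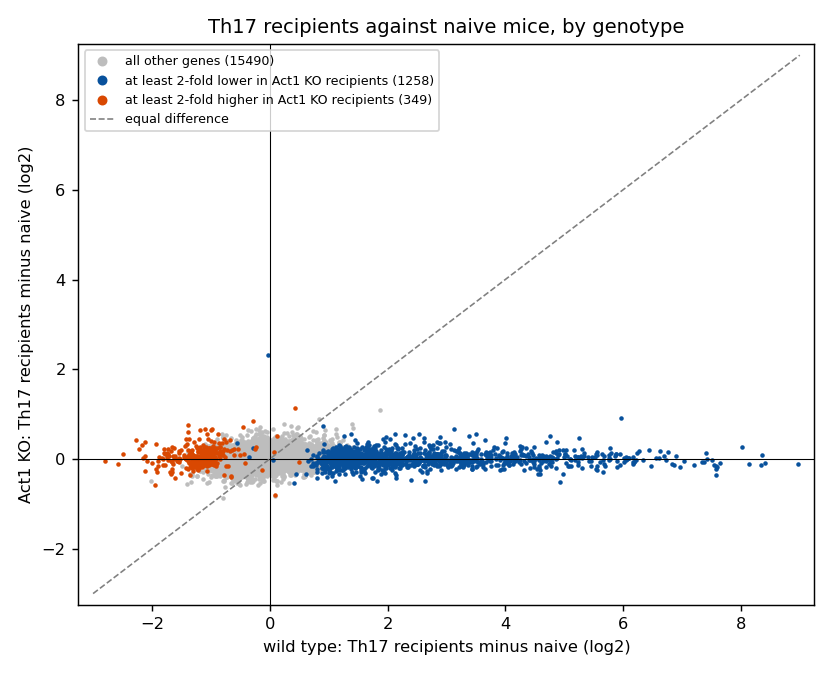
Difference between Th17 recipients and naive mice (log2) in wild-type mice (horizontal axis) and in Act1 KO mice (vertical axis), with 1 point per gene for 17097 genes and a dashed line where both would be equal. Blue points are the 1258 genes called and at least 2-fold lower in Act1 KO than in wild-type recipients and orange points the 349 at least 2-fold higher; both sets spread along the horizontal axis and lie near 0 on the vertical one, with Rpgrip1 at 2.32 and Gdpd3 at 1.13 as the highest on it.

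The chemokines Cxcl1 and Ccl7 and the genes Cp, S100a9, Steap4 and Ptx3 are genes that the study's text follows from these arrays. Notch2, which it also names, is described with the NOTCH genes. Cxcl1, a chemokine for neutrophils, had values of 7.04, 7.19, 7.25, 6.98 and 6.88 in the wild-type recipients and 3.20, 3.13, 3.11 and 2.94 in the Act1 KO recipients. The groups did not overlap, and every Act1 KO value lay under the floor, as did the naive means of 3.08 and 3.11. Cxcl1 was at least 12.2-fold lower in Act1 KO recipients (difference −3.97, SE 0.16, limma adjusted p = 1.97e-17). Steap4, a metalloreductase induced by IL-17, had 9.31, 8.39, 9.31, 8.79 and 8.30 against 2.77, 2.81, 2.92 and 2.76. Its Act1 KO values all lay under the floor as well, and it was at least 41.1-fold lower (difference −6.0, SE 0.28, adjusted p = 6.07e-16). Ptx3, a soluble receptor for microbial patterns, had 7.79, 8.20, 7.40, 7.93 and 8.02 against 3.10, 2.87, 3.13 and 2.80, at least 21.2-fold lower, while a second, dimmer probe set of Ptx3 differed by −0.05 only. S100a9, a calcium-binding protein of neutrophils and monocytes, had 8.02, 8.54, 8.82, 7.85 and 9.38 against 3.12, 2.89, 3.18 and 3.10, at least 33.4-fold lower. Its wild-type values spread more widely than those of the other genes (SD 0.62), and still each lay far above every Act1 KO value. Ccl7, a chemokine for monocytes, had 7.67, 8.06, 7.87, 7.84 and 7.86 against 2.92, 2.69, 2.61 and 2.80, at least 21.1-fold lower. Cp, the copper-carrying ferroxidase ceruloplasmin, had 9.99, 9.66, 10.11, 9.75 and 9.65 against 3.72, 3.86, 3.82 and 4.36. It was 59.3-fold lower (difference −5.89, SE 0.15), and its other probe set differed by −1.36. For each of these 6 genes the exact permutation test of 5 against 4 mice gave 0.0159, the smallest two-sided p that this design allows. Every gene whose groups do not overlap gets this p, which held for 15.1% of all genes as lower and 19.2% as higher. The study took the 6 genes from these same arrays, so that the test is no independent check of them.

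**Figure D2:**
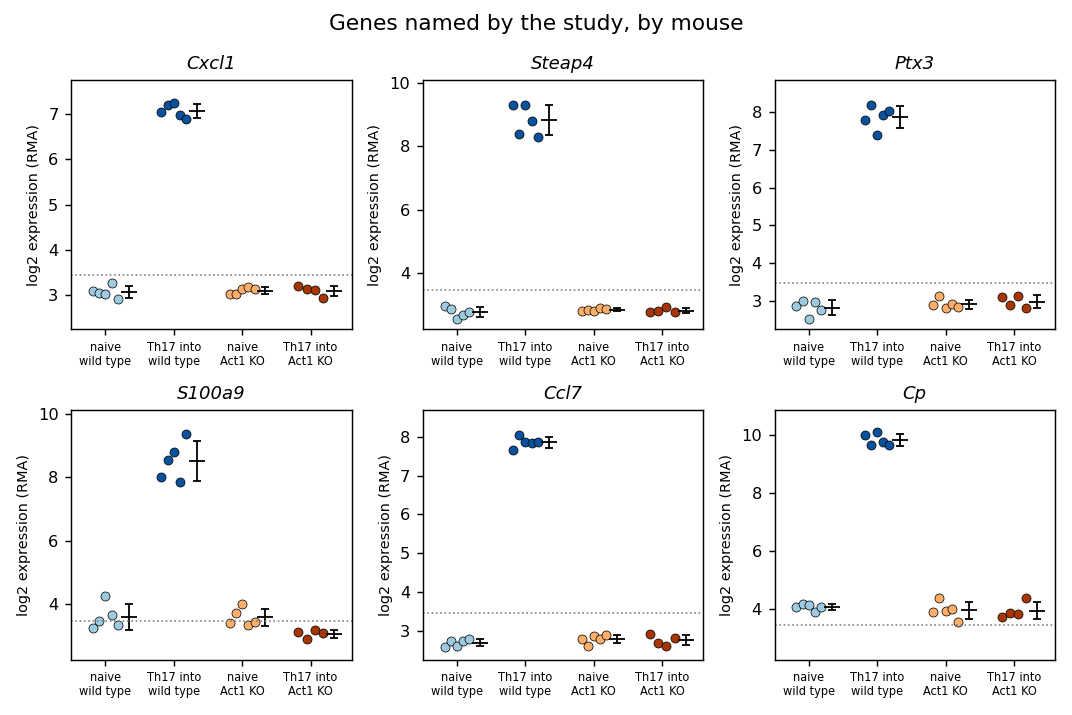
Log2 expression in each mouse (points) of the chemokines Cxcl1 and Ccl7 and of Cp, S100a9, Steap4 and Ptx3, with mean and SD beside each group, for naive and Th17 recipient mice of both genotypes. The dotted line marks the floor of 3.46; the 5 wild-type recipients lie far above it in each panel, and the 4 Act1 KO recipients lie at the level of the naive mice.

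The largest decreases belonged to genes of innate immune cells and of the interferon response. Lcn2, the iron-sequestering protein lipocalin 2, had 11.81, 11.61, 11.83, 11.63 and 11.76 in wild-type and 2.70, 2.44, 2.65 and 2.80 in Act1 KO recipients. It was at least 308-fold lower, the largest measured difference of any gene (−9.08, SE 0.16, limma adjusted p = 4.46e-25). Next came the chitinase-like proteins of alternatively activated macrophages Chil4 (−8.57) and Chil3 (−8.40), of which Chil4 had a second probe set that differed by −0.16 only. The sequences of these genes are close and their probe sets may share transcripts, so their separate values are uncertain. Arg1, the arginase of the same cells, had 10.97, 11.38, 10.97, 11.09 and 11.24 against 2.83, 2.71, 3.0 and 3.08, at least 204-fold lower. The interferon-inducible GTPases Tgtp1 (−8.11), Iigp1 (−8.07), Gbp10 (−7.71) and Ifi47 (−7.70) followed. The remaining places were held by the chemokines Ccl6 (−7.75) and Ccl9 (−7.64), the inhibitory myeloid receptor Lilrb4a (−7.67) and Timp1 (−7.60), an inhibitor of matrix metalloproteinases made by reactive astrocytes. For all of these 12 genes the groups did not overlap. In Act1 KO recipients, the means of 11 of them lay under 3.46 and that of Ccl6 at 3.53. Along the first principal component of the 9 recipient arrays, which held 87.21% of their variance, the genes that followed it most closely were Ccl2, a monocyte chemokine (difference −6.27), Msn, the cytoskeletal linker moesin (−2.36), and Myo1f, a myosin of leukocytes (−3.63).

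Of 19 measured genes of IL-17 receptor signalling other than Traf3ip2, 11 were called lower and 3 higher in Act1 KO recipients, against 17.6% and 24.6% of all genes, with a median difference of −0.59. Il17ra, the receptor chain shared by several IL-17 cytokines, had 7.08, 6.56, 7.04, 7.04 and 6.90 in wild-type and 4.59, 4.93, 4.54 and 4.92 in Act1 KO recipients. The groups were apart, and the naive means of 4.67 and 4.82 lay within the range of the Act1 KO values (difference −2.18, SE 0.15, limma adjusted p = 2.03e-12). Its partner Il17rc was at least 1.82-fold lower (−1.05), and Il17re, the receptor chain for IL-17C, at least 1.21-fold lower. Ikbke, the inducible kinase IKKε that phosphorylates Act1, had the largest difference of the list (−3.05, at least 7.65-fold), ahead of Arid5a (−1.63), which protects messenger RNAs from decay. Traf5 (−0.90) and Traf2 (−0.76), which take part in the messenger RNA arm, Ikbkb (−0.69), Tab2 (−0.40), Usp25 (−0.82) and Elavl1 (−0.87) were also lower, although the mean and the most variable of the probe sets of Elavl1 gave the opposite sign. Tab3 (0.48), Map3k7 (0.30), which encodes the kinase TAK1, and Il17rb (0.54), a receptor for IL-25, were called higher, with the sign of Map3k7 turned by its most variable probe set. Traf6 (−0.01), Traf4 (0.08), Tbk1 (−0.20), Srsf1 (−0.06) and Il17rd (−0.09) did not pass. With arrays centred on their medians or on ribosomal protein genes, Traf6, Tbk1, Srsf1 and Il17rd took a positive sign, and the list had 9 genes lower and 6 higher under the latter.

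Of 26 known IL-17 target genes, 21 were called lower and 0 higher, with a median of −3.40 against 0.06 over all genes. Beside Lcn2, Cxcl1, Steap4, Ptx3, S100a9 and Ccl7, the list holds Saa3, an acute phase protein, with 10.69, 10.27, 11.08, 10.18 and 9.10 in wild-type recipients and 2.76, 2.97, 2.48 and 2.76 in Act1 KO recipients. All 4 Act1 KO values lay under the floor, and Saa3 was at least 112-fold lower (−7.52, SE 0.24). Ccl2 (at least 49.7-fold lower), Icam1, an adhesion molecule for leukocytes (at least 26.3-fold), and Cebpd, a transcription factor of the acute phase response (20.9-fold), were lower too. The 5 members that did not pass were Csf3 (0.09), Ccl20 (0.00), Cxcl5 (−0.04), Mmp9 (−0.35) and Mmp13 (−0.12). Csf3, Ccl20 and Cxcl5 lay under the floor in wild-type recipients as well, at 2.63, 2.96 and 2.89, so that no fold is given for them. The sign of Cxcl5 turned with arrays centred on their medians or on ribosomal protein genes.

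The promoters of Cxcl1, of Lcn2 and of Saa3, the members with the largest differences among the others, are shown because IL-17 acts on many targets through NF-κB. The bases are the 250 before the transcription start in RefSeq's table for GRCm38.p6, on the strand of the gene, and capitals mark each match to a common form of the NF-κB site, GGG, any 2 bases and TTTCC, searched on both strands. Cxcl1 lies at chr5:90890995-90891244 on the plus strand, Lcn2 at chr2:32387740-32387989 and Saa3 at chr7:46715677-46715926, both on the minus strand.
Cxcl1: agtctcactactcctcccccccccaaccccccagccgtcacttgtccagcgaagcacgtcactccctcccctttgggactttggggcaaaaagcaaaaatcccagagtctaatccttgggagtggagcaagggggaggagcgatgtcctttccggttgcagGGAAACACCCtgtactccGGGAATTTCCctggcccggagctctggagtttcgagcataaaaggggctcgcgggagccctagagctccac
Lcn2: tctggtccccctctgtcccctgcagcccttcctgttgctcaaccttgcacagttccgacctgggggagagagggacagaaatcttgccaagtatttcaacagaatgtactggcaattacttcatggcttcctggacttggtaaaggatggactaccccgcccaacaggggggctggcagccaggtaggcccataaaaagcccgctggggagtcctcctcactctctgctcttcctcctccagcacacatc
Saa3: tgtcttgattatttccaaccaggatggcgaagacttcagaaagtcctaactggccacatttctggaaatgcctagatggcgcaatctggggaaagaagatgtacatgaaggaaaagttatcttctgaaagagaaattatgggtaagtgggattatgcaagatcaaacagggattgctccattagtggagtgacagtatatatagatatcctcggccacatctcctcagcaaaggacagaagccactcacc
Cxcl1 held 2 matches, GGAAACACCC on the other strand and GGGAATTTCC on the printed one, which end 80 and 62 bases before the start. In Lcn2 and Saa3 these letters did not occur in the window. With 50 bases after the start included, 7 of 19 target genes found in the table had a match (36.8%, those of Ccl20, Cxcl1, Cxcl2, Il6, Nfkbia, Steap4 and Tnfaip3), against 1.63% of 32851 promoters and 1.9% of 13605 measured genes. Ccl20, which holds a match, lay under the floor in both groups, and Lcn2, which holds none, had the largest difference.

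Markers of leukocytes were lower in Act1 KO recipients across the myeloid and T cell lists. All 17 measured monocyte and macrophage markers were called lower (median −4.73). Their summed linear level was 11200 to 13000 in wild-type recipients and 557 to 605 in Act1 KO recipients, against 448 to 515 in naive wild-type and 494 to 598 in naive Act1 KO mice. Among them were Cybb, the phagocyte NADPH oxidase (at least 111-fold lower), and Lyz2, lysozyme (at least 53.9-fold). Of 18 neutrophil markers, 12 were lower, against 17.6% of all genes. The receptors Clec4e (at least 47.0-fold), Clec4d (at least 48.9-fold) and Fpr2 (at least 59.4-fold), which monocytes also carry, led the list, with S100a8 (at least 29.0-fold), the partner of S100a9. The granule genes Mpo (−0.17), Elane (−0.15), Ltf (−0.11) and Ngp (−0.06) did not pass, whereas other granule genes of the list were called lower, down to −4.49. Of the 18 markers, 6 had means under the floor in both recipient groups. The summed level of the list was 2530 to 3430 in wild-type and 147 to 155 in Act1 KO recipients, against 150 to 180 and 156 to 175 in naive mice. The part that the RNA of infiltrating cells had in the differences of the other lists was not tested.

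All 16 measured T cell markers were lower (median −2.23). Cd3d, a chain of the T cell receptor complex, had 7.36, 7.10, 7.46, 6.99 and 6.86 in wild-type and 3.11, 3.05, 2.82 and 3.05 in Act1 KO recipients. The Act1 KO values lay under the floor, as in naive mice (2.99 and 3.05), and Cd3d was at least 12.9-fold lower (−4.15, SE 0.12, limma adjusted p = 1.92e-20). Cd3g (at least 10.8-fold), the adhesion molecule Cd2 (at least 6.5-fold) and the adaptor Lat (at least 8.38-fold) had similar values. The summed level of the list was 734 to 884 and 122 to 139, with 118 to 127 and 115 to 136 in naive mice. Of 14 T helper genes, 8 had means under the floor in both recipient groups. On the scale used here 11 of the 14 were called lower (median −0.38), against 17.6% of all genes. With arrays centred on ribosomal protein genes 5 were lower and 3 higher. Those lower on both scales include the transcription factors Batf (−1.75) and Stat4 (−1.50), the chemokine receptor Cxcr3 (−1.80) and Ifng (−1.29), the cytokine of Th1 cells. Il17a, the cytokine of Th17 cells, was dim, with 3.38, 3.65, 4.06, 3.09 and 3.36 in wild-type and 3.19, 2.92, 3.19 and 3.19 in Act1 KO recipients. The groups overlapped, and the difference of −0.39 passed in limma (adjusted p = 0.0116) but not in the exact permutation test (p = 0.0635). Cytotoxic genes were lower in 8 of 12 (17.6% of all genes), with the chemokine Ccl5 (at least 65.7-fold) and the granule protein Nkg7 (at least 6.18-fold) beside Klrk1 (at least 2.02-fold) and Fasl (at least 2.81-fold). Of 8 B cell markers only Cd22 (−2.61) and Jchain (−0.68) were lower, and the other 6 did not pass, the B cell receptor genes Cd79a (−0.06) and Cd79b (−0.02) among them. In both recipient groups 6 of the 8 had means under the floor, so that the list says little about B cells. With arrays centred on their medians 5 passed as higher, as did 11264 of all 17097 genes. Of 10 dendritic cell markers, 3 were lower (Itgax −3.41, Cd86 −3.33, Batf3 −0.63), 2 were higher (Flt3 0.76, Cd83 0.41) and 5 did not pass. Of all genes, 17.6% were called lower and 24.6% higher, and 4 of the 10 markers had means under the floor in both recipient groups. With arrays centred on their medians 3 were lower and 4 higher.

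Genes of the interferon response were lower nearly without exception. Of 17 genes induced by interferon-γ, 16 were called lower (median −5.52), and the other, Ido1 (−0.32), did not pass. Cxcl10, a chemokine for T cells, had 10.20, 10.57, 10.26, 10.44 and 10.58 in wild-type and 3.12, 3.0, 2.95 and 3.13 in Act1 KO recipients. No Act1 KO value reached the floor, and Cxcl10 was at least 124-fold lower (−7.36, SE 0.12, limma adjusted p = 2.62e-25). Cxcl9 (at least 82.3-fold) and the guanylate-binding protein Gbp3 (33.9-fold) belong to the same list. All 14 type I interferon genes were lower (median −4.15), among them the antiviral genes Ifit1 (60.2-fold), Ifit3 (21.6-fold), Oasl2 (at least 58.2-fold) and the RNA sensor Ifih1 (14.1-fold). Antigen presentation followed. H2-Aa, a chain of MHC class II, had 10.18, 10.48, 10.03, 10.44 and 10.25 against 3.08, 2.51, 2.84 and 2.59, with naive means of 2.63 and 2.85. It was at least 113-fold lower, H2-Ab1 at least 109-fold, H2-Eb1 56.8-fold and the invariant chain Cd74 165-fold, and 10 of 11 class II genes were called. All 12 class I genes were lower (median −3.33). They include the immunoproteasome subunits Psmb8 (73.3-fold) and Psmb9 (45.9-fold), the transactivator Nlrc5 (at least 18.7-fold) and H2-K1 (12.9-fold), which kept a mean of 8.40 in Act1 KO recipients.

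All 10 measured complement genes were lower (median −3.33), with Cfb, a factor of the alternative pathway (at least 61.5-fold), Serping1, the inhibitor of C1 (70.9-fold), the receptor C3ar1 (at least 31.8-fold) and C1ra (at least 17.2-fold) among them. Of 15 interleukin-1 and TNF genes, 13 were lower, among them the inflammatory caspase Casp4 (at least 26.5-fold), the TNF receptors Tnfrsf1b (at least 20.6-fold) and Tnfrsf1a (6.18-fold), and Il18bp (26.2-fold), a decoy for IL-18. Il1rap, the shared chain of interleukin-1 receptors, was called higher by 0.37 with overlapping groups. In the STAT3 and interleukin-6 family, 11 of 14 were lower, with the feedback inhibitors Socs3 (at least 17.5-fold) and Cish (at least 3.43-fold) and the oncostatin M receptor Osmr (at least 12.1-fold), and Lifr was called higher (0.30), a sign that its most variable probe set turned. Of 26 chemokine ligands, 21 were lower and 1, Ccl25, was higher (1.49). Of 11 chemokine receptors, 9 were lower, among them Ccr1 (at least 17.7-fold), Cxcr6 (at least 8.26-fold), Ccrl2 (8.28-fold) and Ccr2 (at least 6.87-fold), the receptor by which monocytes answer Ccl2 and Ccl7.

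**Figure D3:**
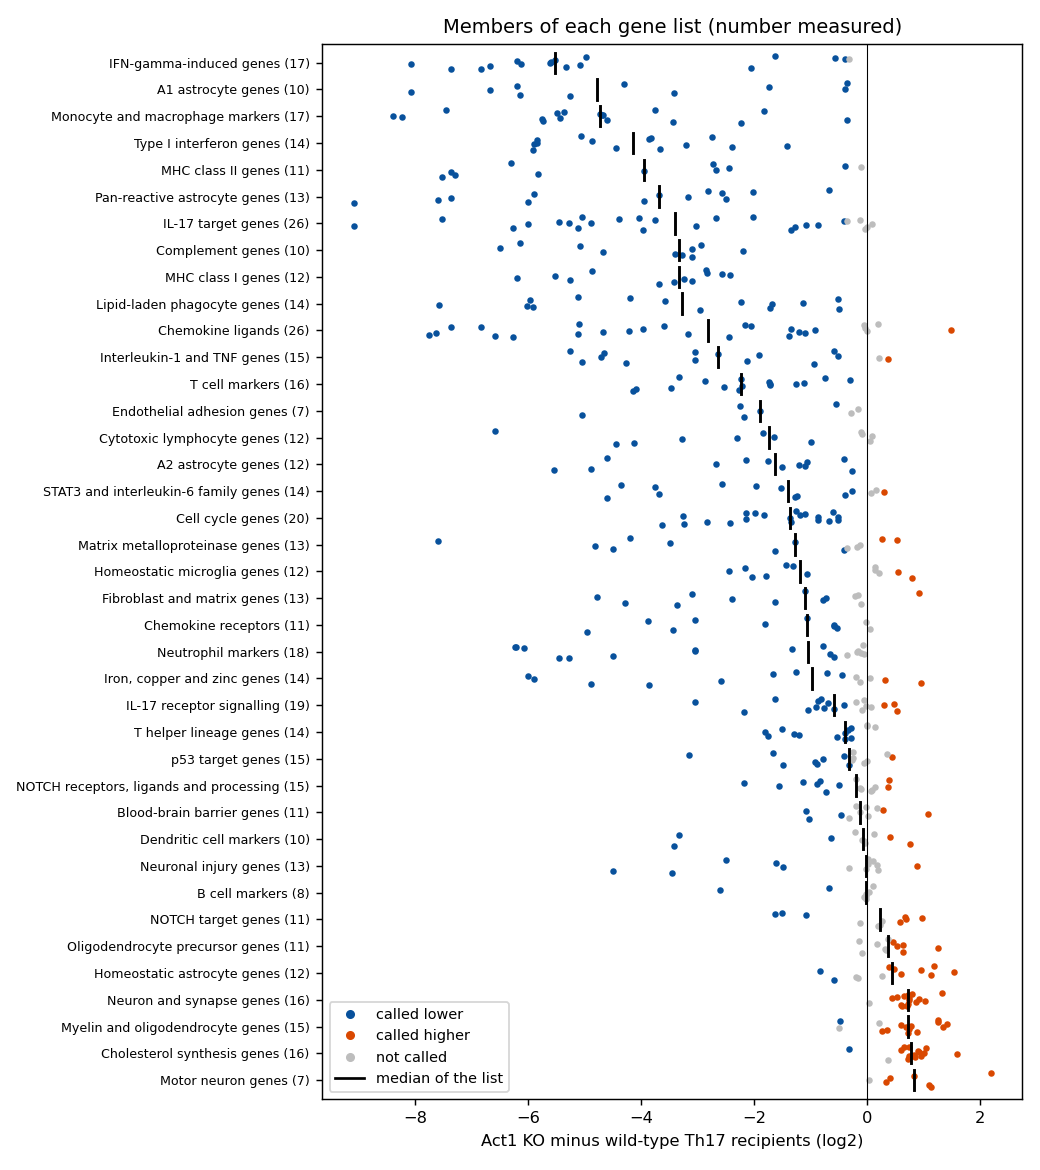
Difference between Act1 KO and wild-type Th17 recipients (log2, horizontal axis) for each measured member of the gene lists (rows, with the number measured, without the genes followed in the study's text and the erythroid and Schwann cell lists), coloured by call, with a black bar at the list's median. Of these, interferon, macrophage and A1 astrocyte lists lie furthest to the left, at medians of −4.15 to −5.52, and neuronal, myelin and cholesterol lists lie to the right of 0, at medians of 0.72 to 0.83.

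Genes of reactive glia were lower in the same mice. All 13 pan-reactive astrocyte genes (median −3.68), all 10 measured A1 genes (−4.78) and all 12 A2 genes (−1.62) were called lower. A1 and A2 are names for genes raised in astrocytes by inflammation and by ischaemia, and many of the A1 genes, such as Gbp2 (102-fold), are also interferon targets. The A2 genes include Tgm1 (at least 31.7-fold), Cd14 (24.4-fold), which monocytes express too, and Ptgs2 (at least 4.67-fold), cyclooxygenase 2. Gfap, the filament protein of astrocytes, was chosen after the values were seen. It had 11.67, 11.78, 11.63, 11.48 and 11.84 in wild-type and 11.08, 10.85, 11.02 and 11.06 in Act1 KO recipients, without overlap, a difference of −0.68 (SE 0.10, limma adjusted p = 3.19e-06). This was the smallest difference of the pan-reactive list, which ran from −9.08 to −0.68. Of 14 genes of lipid-laden phagocytes all were lower (median −3.27), among them the β-glucan receptor Clec7a (at least 146-fold), Gpnmb (64.7-fold), the cathepsin inhibitor Cst7 (at least 46.6-fold) and the adaptor Tyrobp (18.4-fold). Of 12 homeostatic microglia genes, 7 were lower and 2 higher, against 17.6% and 24.6% of all genes. With arrays centred on their medians 7 were lower and 5 higher, against 2067 and 11264 of all 17097 genes. The lower ones include Olfml3 (5.44-fold), the receptor Csf1r (4.47-fold), P2ry13 (4.09-fold) and Tmem119 (3.45-fold). P2ry12, the ADP receptor by which resting microglia sense injury, went the other way, with 5.96, 5.91, 6.0, 5.98 and 6.35 in wild-type and 6.72, 6.72, 7.0 and 6.89 in Act1 KO recipients. The groups did not overlap, although wild-type mouse 5 stood above the other 4, and the difference was 0.79 (SE 0.12, limma adjusted p = 7.53e-06). Gpr34, another microglial receptor, was also higher (0.55).

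Genes of neurons and of myelinating cells were higher in Act1 KO than in wild-type recipients. Of 16 neuron and synapse genes, 15 were called higher and none lower (median 0.72, against 24.6% of all genes called higher and a median of 0.06). Snap25, a synaptic vesicle fusion protein, had 11.0, 10.93, 10.96, 10.70 and 11.06 in wild-type and 11.71, 11.55, 11.63 and 11.65 in Act1 KO recipients. The groups did not overlap, and the Act1 KO mean of 11.63 lay at the naive means of 11.70 and 11.62 (difference 0.71, SE 0.10, limma adjusted p = 1.81e-06). Slc32a1, the vesicular transporter of inhibitory neurons (0.87), Slc17a6, that of excitatory neurons (0.72), and the tubulin-binding protein Stmn2 (0.75) had like values. Of 7 motor neuron genes, 6 were higher. Chodl, a marker of fast motor neurons, had 5.44, 5.56, 5.21, 4.28 and 4.68 against 7.41, 7.38, 7.07 and 7.04, without overlap (4.58-fold higher, difference 2.19, SE 0.27). The cholinergic genes Slc18a3 (1.14), Slc5a7 (1.09) and Ache (0.83) were higher as well.

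Of 15 myelin genes, 12 were called higher and 1, the transferrin gene Trf (−0.48), lower. Opalin, a membrane protein of oligodendrocytes, had 7.06, 6.94, 7.05, 7.01 and 7.63 in wild-type and 8.66, 8.47, 8.70 and 8.41 in Act1 KO recipients. Wild-type mouse 5 was the highest of its group and the groups still did not overlap (1.42, SE 0.14). Ugt8a, which makes the galactolipid of myelin, had 8.93, 8.87, 8.61, 8.84 and 8.73 against 10.10, 10.13, 10.13 and 10.19 and was 2.53-fold higher. Fa2h, the fatty acid hydroxylase of the same pathway (1.25), the connexin Gjc3 (1.25) and Mog (0.88), the antigen of the transferred cells, were higher too. Of 11 precursor genes, 5 were higher and 6 did not pass, against 24.6% of all genes called higher. With arrays centred on their medians 10 were higher, as were 11264 of all 17097 genes. Gpr17 (1.25), a receptor of cells about to differentiate, was higher beside Lhfpl3 (0.63), Olig1 (0.63) and Ptprz1 (0.53). Pdgfra, the growth factor receptor that defines these cells, did not pass (−0.09). The part that a smaller share of leukocyte RNA had in the higher values of neural genes was not tested.

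Cholesterol synthesis, on which myelin depends, gave 14 of 16 genes higher (median 0.79), against 24.6% of all genes. Lss, lanosterol synthase, had 4.76, 5.19, 4.66, 5.22 and 5.67 in wild-type and 6.64, 6.89, 6.65 and 6.56 in Act1 KO recipients. No value overlapped, and the wild-type mice differed among themselves more than the Act1 KO mice, with SDs of 0.41 and 0.14 (3.0-fold higher, difference 1.59, SE 0.15, limma adjusted p = 1.67e-09). Dhcr7 had 5.97, 6.15, 6.16, 5.93 and 7.03 against 7.20, 7.44, 7.14 and 7.37, so that wild-type mouse 5 nearly reached the lowest Act1 KO recipient. Fdps (0.95) and Cyp51 (1.01) showed the same mouse highest. Without wild-type mouse 5 the median of the list was 1.00, with 14 genes higher and 0 lower. The 1 gene called lower, Ebp (−0.31), had overlapping groups, and its sign turned with arrays centred on ribosomal protein genes.

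Homeostatic astrocyte genes were mixed. Of 12, 7 were higher, among them S100b (1.19), the growth factor receptor Fgfr3 (1.55) and the connexin Gjb6 (1.13), and 2 were lower, Aldh1l1 (−0.83), a folate enzyme used as a pan-astrocyte marker, and the glutamate transporter Slc1a2 (−0.59). Of all genes, 24.6% were called higher and 17.6% lower. S100b had 9.66, 9.58, 9.52, 9.40 and 9.85 in wild-type and 10.77, 10.90, 10.78 and 10.74 in Act1 KO recipients, without overlap. Among single genes the largest increase was that of Bcan, brevican, a proteoglycan of the perineuronal matrix made by glia. It had 5.30, 4.91, 4.88, 4.65 and 5.14 in wild-type and 7.91, 7.51, 7.83 and 7.72 in Act1 KO recipients, against naive means of 7.78 and 7.78 (6.8-fold higher, difference 2.77, SE 0.19, limma adjusted p = 4.54e-12). The clock-controlled transcription factor Dbp (2.35), the uncharacterised 2900052N01Rik (2.31), the cell cycle inhibitor Cdkn1c (2.30), Serpinb1a (2.24), Tlcd1 (2.24), the neuropeptide Npb (2.10), Itih3 (2.09), Nkain4 (2.02) and Aif1l (2.0) completed the list with Chodl and Gdpd3, a lysophospholipase (2.18). Gdpd3 was the exception among these 12: its interaction term did not pass (0.71, limma adjusted p = 0.528), and its difference between naive mice was 1.47, which did not pass either (adjusted p = 0.334).

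**Figure D4:**
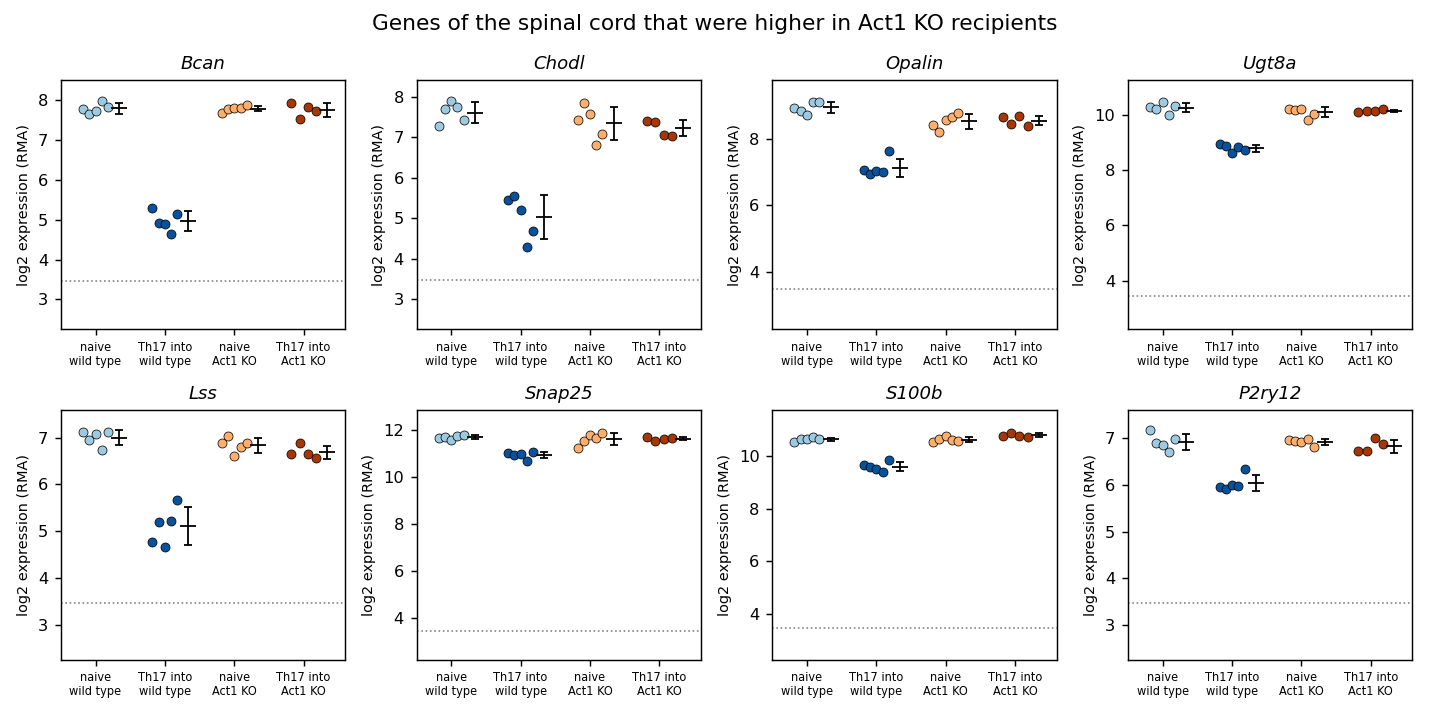
Log2 expression of Bcan, Chodl, Opalin, Ugt8a, Lss, Snap25, S100b and P2ry12 in each mouse (points), with mean and SD beside each group; the dotted line marks 3.46. In each panel the 5 wild-type recipients lie below the 4 Act1 KO recipients, by 0.71 (Snap25) to 2.77 (Bcan), and the Act1 KO recipients lie close to the naive mice.

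Vessels, matrix and dividing cells were described by further lists. Of 7 endothelial adhesion genes, 5 were lower, with Icam1, Vcam1 (4.53-fold), Selp (at least 2.33-fold) and Selplg (4.72-fold), the selectin ligand of leukocytes. Of 11 blood-brain barrier genes, 3 were lower (Pecam1 −1.08, Cldn5 −1.03, Slc2a1 −0.46), 2 were higher (Slco1c1 1.08 and Cdh5 0.29) and 6 did not pass. Of all genes, 17.6% were called lower and 24.6% higher. Cdh5 lay under the floor in both groups and had the opposite sign by its other probe set. With arrays centred on their medians 2 of the 11 were lower and 3 higher. In the fibroblast and matrix list, 9 of 13 genes were lower, with Fn1, fibronectin (27.4-fold), Col3a1 (19.6-fold), Col1a1 (10.2-fold) and Dcn (5.26-fold), and Fbln1 was higher (0.93). Of 13 matrix metalloproteinase genes and inhibitors, 8 were lower, with Mmp12 (at least 19.3-fold), Adam8 (18.4-fold) and Mmp14 (11.3-fold), and Timp2 (0.53) and Timp3 (0.26) were higher, the sign of Timp2 being turned by its most variable probe set. All 20 measured cell cycle genes were lower (median −1.36), with Mki67 (at least 9.55-fold), Ube2c (at least 6.49-fold), Cdk1 (at least 6.27-fold) and Mcm6 (4.4-fold). Of 15 p53 targets, 8 were lower (Fas −3.16, Btg2 −1.66, Cdkn1a −1.48, Pmaip1 −0.92) and 1 higher (Zmat3 0.44), against 17.6% and 24.6% of all genes. The median of −0.31 for the p53 list became 0.07 with arrays centred on ribosomal protein genes.

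The study concerns NOTCH, so its genes were counted as well. Of 15 receptors, ligands and processing genes, 7 were lower and 2 higher, with a median of −0.19 that became 0.08 and 0.19 with arrays centred on their medians and on ribosomal protein genes. Adam17, a protease that cleaves NOTCH receptors and releases TNF (4.53-fold lower), Rbpj, the transcription factor of the pathway (2.93-fold), Psen2, a γ-secretase subunit (2.21-fold), and Notch1 (7.02 ± 0.15 against 6.29 ± 0.16, −0.73) were lower. Notch2 had 3.06, 3.25, 3.31, 3.18 and 3.30 in wild-type and 3.40, 3.25, 3.28 and 3.28 in Act1 KO recipients. It lay under the floor in all 9 and did not pass (0.08, SE 0.08, limma adjusted p = 0.491), nor between recipients and naive mice of either genotype (0.06 in wild-type and 0.03 in Act1 KO mice). The study states from its array analysis that NOTCH2 was induced in the cords of Th17 recipients. The probe set read here did not show this, and values under the floor cannot decide it. Notch3 (0.09), Notch4 (−0.10), Dll4 (0.14) and the ligand Jag1 (−0.12) did not pass either. Dll1 (0.37) and Aph1a (0.39) were called higher, and the most variable probe set of Aph1a had the opposite sign. Of 11 NOTCH targets, Myc (−1.62), Ccnd1 (−1.50) and Id3 (−1.08) were lower and 4 were higher, among them the feedback regulators Nrarp (0.97) and Dtx1 (0.68). Of all genes, 17.6% were lower and 24.6% higher. With arrays centred on their medians 7 targets were higher, and 8 on ribosomal protein genes, against 11264 and 12633 of all 17097 genes. Hes1 (0.19) and Hes5 (0.23) did not pass.

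Of 13 neuronal injury genes, 5 were lower, among them Sprr1a (at least 17.1-fold), the stress factor Atf3 (at least 9.78-fold), Hspb1 (5.62-fold) and Csf1 (3.06-fold), and the neuropeptide Npy was higher (0.89). Of all genes, 17.6% were called lower and 24.6% higher. With arrays centred on their medians 5 of the 13 were lower and 6 higher, against 2067 and 11264 of all 17097 genes. Among iron, copper and zinc genes, 9 of 14 were lower (17.6% of all genes), with the transporter Slc11a1 of phagocytes (at least 28.6-fold) and the haem-degrading Hmox1 (14.5-fold) beside Steap4 and Cp, while the iron exporter Slc40a1 (0.96) and the transferrin receptor Tfrc (0.32) were higher (24.6% of all genes). Of 4 erythroid markers, 3 had means under the floor in both recipient groups, so that the list says little about blood left in the tissue. None passed (Hba-a1 −0.98, limma adjusted p = 0.105, and Hba-a2 −0.18, both with overlapping groups). Their summed level was 534 to 964 in wild-type and 200 to 546 in Act1 KO recipients. With arrays centred on their medians 2 of the 4 passed as higher, as did 11264 of all 17097 genes. Of 5 Schwann cell markers, which show attached nerve roots, Egr2 was lower (−2.43), a factor that activated T cells also express, Ncmap was higher (0.50) and the other 3 did not pass, of which 2 passed as higher with arrays centred on their medians.

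Because the count of genes that differed between Act1 KO recipients and naive Act1 KO mice was 0 by limma, the intervals of single differences are given for the 4 and 5 mice. Cxcl1 differed by −0.01 (95% interval −0.34 to 0.32), Lcn2 by −0.11 (−0.43 to 0.21), Cd3d by −0.04 (−0.28 to 0.21), Arg1 by 0.08 (−0.26 to 0.43) and Cxcl10 by −0.08 (−0.33 to 0.18), all between means under the floor. RMA compresses such low values, so that these intervals do not bound a change in the transcripts themselves. No list had a called member in this comparison, and the list medians lay between −0.13 for oligodendrocyte precursor genes and 0.16 for blood-brain barrier genes. The genes with the smallest adjusted p in that comparison were C4b, a complement component, and Smarce1, a chromatin remodelling subunit (both 0.0704), followed by S100a6 (0.0873), and these were chosen after their values were seen. C4b had 8.16, 7.85, 7.90 and 8.11 in Act1 KO recipients and 7.36, 7.24, 7.12, 7.83 and 7.18 in naive Act1 KO mice, a difference of 0.66 (95% interval 0.42 to 0.90), against 3.13 between the wild-type groups. S100a6, a calcium-binding protein of reactive astrocytes, differed by 0.56 (0.34 to 0.79) and by 3.50 in wild-type mice. Lgals3, a galectin of activated microglia and macrophages, had 5.47, 4.42, 5.26 and 5.92 against 4.06, 4.19, 4.28, 4.96 and 4.30, and a difference of 0.91 (0.48 to 1.34) that did not pass (limma adjusted p = 0.204). Cd4 had the highest value of all T cell markers in this comparison (0.48, 0.17 to 0.79, adjusted p = 0.42). Only 3 of all genes differed by 2-fold or more, Rpgrip1 (2.32), Gdpd3 (1.13) and Sgk1 (1.08), and none passed.

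Some genes differed with the genotype label before any transfer. Between naive mice, 100 genes (0.585%) were called, 72 lower (0.421%) and 28 higher (0.164%) in Act1 KO mice. Of these, 57 were also called between the recipients in the same direction, 38 lower and 19 higher, and 13 in the opposite one. Between the recipients, 42.2% of all genes were called. The 2 comparisons share no array, but both come from the fit of all arrays with its common estimate of each gene's spread. For 31 of the 57, the interaction term was not called. Chromosome 8, with 878 of the genes tested, held 15 of the 57, chromosomes 6 (941 genes) and 14 (596) held 7 each, and chromosome 10 (808), on which Traf3ip2 lies, 6. Galc, the galactosylceramidase that breaks down myelin lipid, had 6.85, 6.81, 6.87, 6.79 and 6.64 in wild-type and 3.46, 3.24, 3.78 and 3.15 in Act1 KO recipients. Naive wild-type mice had 7.13, 7.14, 7.01, 7.06 and 7.0 and naive Act1 KO mice 3.38, 2.92, 3.48, 2.88 and 3.15, so that Galc separated the genotypes in both states (−3.39 in recipients, −3.91 in naive mice), although its other probe sets differed by −0.05 to 1.17 between recipients. The other 9 of the 10 largest differences among the 57, given for naive mice and then for recipients, were all lower in both. They are Clec7a (−0.59 and −7.58), Tgfbi (−0.64 and −6.04), Lgals3 (−0.91 and −5.97), the cathepsin Ctsc (−1.58 and −5.60), Xaf1 (−1.13 and −4.29), Parp12 (−0.78 and −4.03), Hpgd (−1.11 and −3.97), Mmp14 (−0.64 and −3.49) and C4b (−0.63 and −3.10). Xaf1 had another probe set of the opposite sign (3.35).

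Several of the genotype-linked genes varied between mice of the Act1 KO groups, and these were chosen after their values were seen. Rpgrip1, a protein of photoreceptor cilia, had 8.55, 8.54, 8.64, 8.63 and 8.28 in wild-type and 7.49, 5.04, 7.56 and 7.63 in Act1 KO recipients, and 3.75, 3.74, 4.40, 3.57 and 7.57 in naive Act1 KO mice. Recipient 2 and naive mouse 5 thus stood apart from their groups, in opposite directions. Rmst, a long non-coding RNA of neural cells, had 5.17, 5.25, 5.33, 5.52 and 4.89 in wild-type and 2.88, 4.66, 2.94 and 2.79 in Act1 KO recipients. Recipient 2 lay near the wild-type level there, as it did for Ndufa12, a respiratory chain subunit (9.09, 10.85, 9.13 and 9.50 against 10.79, 10.64, 10.76, 10.70 and 10.76), for Nrip2 (5.21, 6.02, 4.50 and 4.96 against 6.10, 5.84, 6.04, 6.11 and 5.92) and for the meiotic cohesin Rec8 (3.04, 4.23, 3.44 and 2.80 against 4.0, 4.12, 3.85, 3.93 and 4.10). For Traf3ip2 and Galc the same mouse lay with the other Act1 KO recipients. Adat2, a tRNA deaminase, was higher in Act1 KO mice in both states (1.83 in recipients and 2.39 in naive mice), as were the chemokine Ccl25 (1.49 and 1.17) and Cfap54 (1.38 and 1.50). Without Act1 KO recipient 2, 7066 genes were called between the recipients and 7 between Act1 KO recipients and naive Act1 KO mice.

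Serpina3n, a protease inhibitor of reactive astrocytes, was 1 of the 13 genes called in opposite directions. It had 12.29, 12.23, 12.28, 12.13 and 12.13 in wild-type and 9.68, 9.79, 9.18 and 9.98 in Act1 KO recipients, 7.41, 7.22, 7.50, 7.53 and 7.48 in naive wild-type and 9.72, 9.62, 9.72, 9.69 and 9.75 in naive Act1 KO mice. Naive Act1 KO mice were thus above naive wild-type mice (2.27, limma adjusted p = 1.02e-13), whereas Act1 KO recipients were below wild-type recipients (−2.56, adjusted p = 1.63e-16), without overlap in either case. The interaction term was −4.82 (SE 0.15), and between Act1 KO recipients and naive Act1 KO mice Serpina3n differed by −0.04 (95% interval −0.27 to 0.19).

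**Figure D5:**
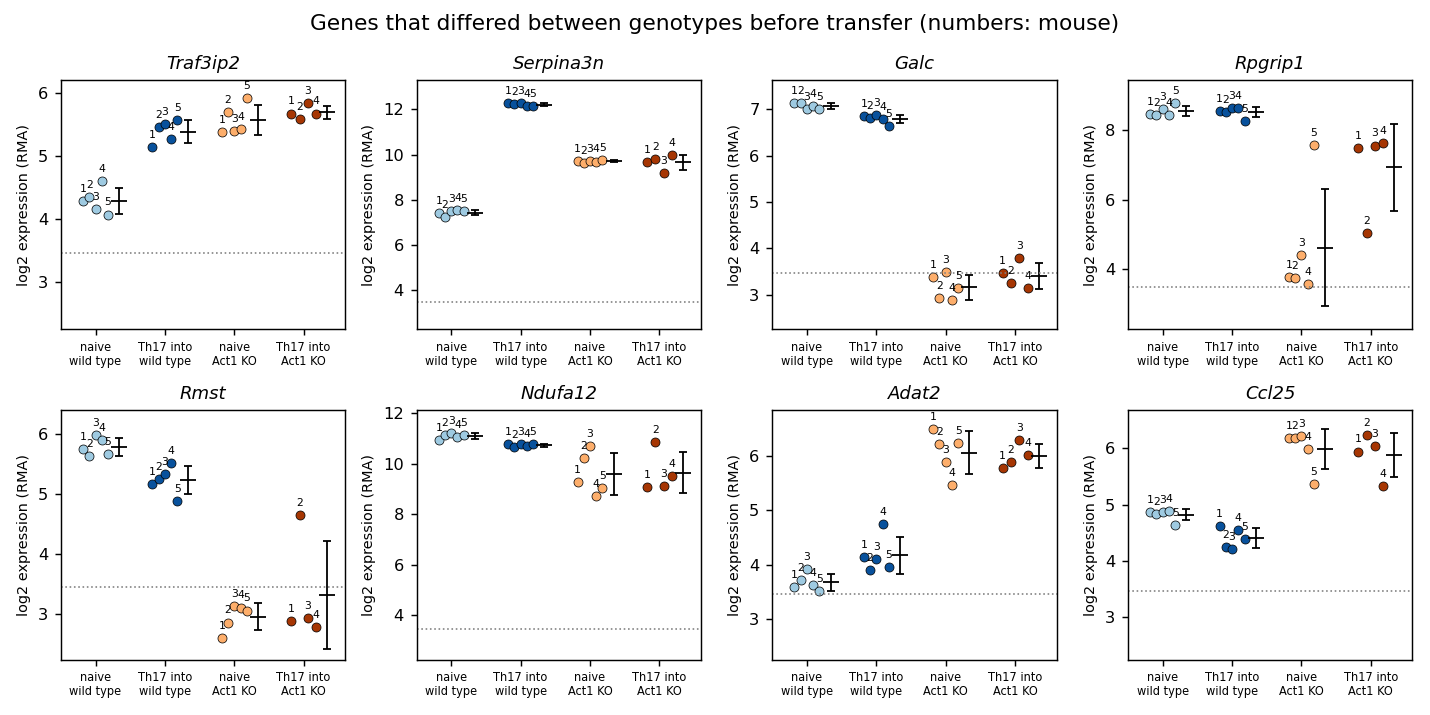
Log2 expression of Traf3ip2, Serpina3n, Galc, Rpgrip1, Rmst, Ndufa12, Adat2 and Ccl25 in each mouse (points, numbered by mouse), with mean and SD beside each group; the dotted line marks 3.46. Galc lies above 6.6 in both wild-type groups and below 3.8 in both Act1 KO groups, and Act1 KO recipient 2 stands apart from its group in Rpgrip1, Rmst and Ndufa12.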

How the data were processed

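RNA of 24 spinal cords was hybridised to GeneChip HT MG-430 PM arrays after oligo-dT labelling of the 3′ ends. The log2 values of the deposited table were made by the authors with RMA, which corrects background, quantile-normalizes and summarises the probes of a set. The version is not given in the sources used here. RMA compresses low values, and 3′ probe sets can miss a deletion elsewhere in a transcript.

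Of 45118 probe sets, 28898 were assigned 1 gene symbol by GEO's platform annotation, 551 several and 15669 none. Each gene was read from its brightest probe set, by the mean of all arrays, which gave 17097 genes. One model with 5 group means was fitted to all arrays with limma 3.58.1 (lmFit, eBayes) in R 4.3.3, with Benjamini-Hochberg adjustment over all genes, and was tested on simulated data. Where no source says otherwise, arrays of a group were taken as separate mice. Groups and mouse numbers were taken from the sample titles. Single genes were also tested by an exact two-sided permutation test, and the floor was the lowest array median. Summed levels of marker lists are sums of linear values. The alternatives were other probe set rules, filters, scalings, variance models, array weights, groups in the fit, plate positions, tests and arrays left out. The comparisons of each genotype's recipients with its naive mice had their alternatives added after seeing the data, as had the cholesterol list without wild-type mouse 5.

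Genes were named by a rule: Traf3ip2 and the members of IL-17 receptor signalling, 6 genes in the study's text, the 12 largest decreases and 12 largest increases of called genes without overlap of the groups, the 10 largest differences shared with naive mice, up to 4 members of a list by smallest adjusted p with those called against the rest, the 2 brightest members of a list without a call, and the 3 genes closest to the first principal component of the 9 arrays. Saa3, Csf3, Ccl20, Cxcl5, Il17a, Mog, Gfap, Notch2, Cd4, Sgk1, Smarce1, the members of a list named as not passing and the genes so marked in the text were chosen after their values were seen. The members and lists were chosen with earlier results of these data known.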

Additional observations from a re-analysis of the deposited data

Results flagged for a closer look

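Single mice stood apart from their group by Dixon's test in 27 of 516 groups of values of the named genes (5.23%), where chance gives about 1 in 20. Among wild-type recipients, mouse 5 was the highest for Opalin (7.63, next 7.06), Fdps (8.71, next 7.86), Dhcr7 (7.03, next 6.16), P2ry12 (6.35), Arid5a (5.88) and Socs3 (7.90). It was the lowest for Sprr1a (6.39, next 7.63), C3ar1 (7.87), Cd14 (8.60), Timp2 (9.90) and Rpgrip1 (8.28). The oligodendrocyte gene, the cholesterol enzymes and the microglial receptor of this mouse thus lay toward the Act1 KO values, while Arid5a and Socs3 lay away from them. The other wild-type recipients that stood apart did so for Adat2 (4.75, mouse 4), Per2 (3.65, mouse 4), Ctsc (11.38, mouse 2), Lilrb4a (10.90, mouse 1), Slco1c1 (6.85, mouse 1) and Timp3 (7.62, mouse 3).

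Among Act1 KO recipients, mouse 2 stood apart for the genotype-linked genes Rpgrip1 (5.04, next 7.49) and Rmst (4.66, next 2.94), and among naive Act1 KO mice, mouse 5 stood apart for Rpgrip1 (7.57, next 4.40). The same recipient was the lowest for S100a8 (2.81) and Il17a (2.92), both under the floor in all 4 mice of its group. Mouse 4 was the lowest for Cldn5 (5.11, next 6.01), a tight junction protein of the blood-brain barrier, and for Atf3 (2.93), and the highest for Npy (7.45). Mouse 3 was the lowest for Csf1 (5.78) and Mki67 (2.86).

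The response to Th17 cells differed between the genotypes by the interaction term for 5479 genes, 214 of the 251 named genes among them. For the 6 genes that the study's text follows, the response in Act1 KO minus that in wild-type mice was −6.08 for Steap4, −5.77 for Cp, −5.44 for S100a9, −5.21 for Ccl7, −4.98 for Ptx3 and −4.00 for Cxcl1. It was −4.82 for Serpina3n, which was already raised in naive Act1 KO mice. It was −0.96 for Traf3ip2, which was higher in Act1 KO than in wild-type mice by 1.27 in naive mice and by 0.31 in recipients.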

How the results depend on the processing

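The count of 7214 genes between the recipients stayed within 1.5 times under each alternative but 3: 13331 with arrays centred on their medians, 14404 with arrays centred on ribosomal protein genes, and 1607 when a 2-fold difference was also required. The interaction count of 5479 became 9104, 11192 and 1703 under the same 3, and that of wild-type recipients against naive mice (7436) became 13337, 14980 and 1648. The share of lower genes among those called between the recipients was 41.6%, 15.5% with median centring, 12.3% with ribosomal centring and 33.0% with a further quantile normalization. Between naive mice, the 100 genes became 1126 by the methods' t-test unadjusted, 11 after Benjamini-Hochberg adjustment, 0 by the exact Mann-Whitney test and 28 with the 2-fold requirement. Between Act1 KO recipients and naive Act1 KO mice, the 0 genes became 1 with the mean of all probe sets, 1 with a trended robust variance, 8 with array weights, 3 with the plate row as a term, 1 with the replicate block and 707 by the methods' t-test unadjusted.

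Without 1 mouse at a time, the counts ran from 6709 (Act1 KO recipient 3 left out) to 7066 between recipients, from 5225 to 5505 for the interaction, from 78 to 101 between naive mice, from 6989 to 7247 between wild-type recipients and naive wild-type mice, and from 0 to 7 (Act1 KO recipient 2 left out) between Act1 KO recipients and naive Act1 KO mice. Recipients of one number did not deviate together (correlations of −0.102 to −0.15), and naive mice of one number had correlations of −0.082 to 0.281, not all above 0.1, so the numbers were taken not to pair the mice, and the replicate block gave 7306 genes between the recipients.

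Of 237 called genes that are named, 206 stayed called under each alternative but the 2-fold requirement. Where a gene passed on at least 1 of the scales compared, its sign turned with the most variable probe set for Aph1a (−0.72), Cdh5 (−0.42), Elavl1 (0.86), Lifr (−0.05), Map3k7 (−0.06) and Timp2 (−0.64), and with the mean of all probe sets for Cdh5 (−0.06) and Elavl1 (0.23). It turned with median and ribosomal centring for Traf6 (0.26 and 0.37), Arntl (0.26 and 0.38), Cxcl5 (0.23 and 0.34) and Cry1 (0.01 and 0.13, and 0.02 with quantile normalization), and with ribosomal centring for Ebp (0.07), Smarce1 (0.03) and Srsf1 (0.32). Arrays have no read depth, and their number limits the precision. Of all genes, 5741 lay under the floor of 3.46 in both recipient groups.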

Other observations

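Dbp stood among the largest increases, and other genes of the circadian clock, which were chosen after their values were seen, were read beside it. Dbp had 5.83, 4.90, 5.39, 4.92 and 5.63 in wild-type and 7.66, 7.63, 7.74 and 7.71 in Act1 KO recipients, with naive means of 7.45 and 7.30. The groups did not overlap, and the Act1 KO recipients lay at the naive level. The related transcription factors Hlf (1.33) and Tef (0.62), the repressors Per3 (1.12), Ciart (1.21) and Nr1d2 (1.16), Cry2 (0.47), Clock (0.42) and Per2 (0.36) were also called higher in Act1 KO recipients. Of all genes, 24.6% were called higher, so that these values are given singly and not as a result about a set. Per1 (−0.53) and Bhlhe40 (−1.01), which are also induced by acute stimuli, and Cry1 (−0.26) were lower, Per1 and Cry1 with overlapping groups and the sign of Cry1 being turned by each scaling alternative. Arntl (−0.01) and Npas2 (0.05), partners of Clock, did not pass. The hour of collection is not given in the sources used here, and its part in these values was not tested.

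Genes that answer glucocorticoids, chosen in the same way, did not move in one direction. Fkbp5 was lower in Act1 KO recipients, with 7.80, 8.12, 7.42, 8.14 and 7.74 in wild-type and 6.17, 5.92, 5.83 and 6.53 in Act1 KO recipients (−1.73, limma adjusted p = 7.92e-05). Pdk4 (−0.68) and Sgk1 (−0.84) were lower too, the latter with overlapping groups, whereas Tsc22d3 was higher (0.55) and Zbtb16 (0.41) did not pass. A pair of genes of lipid storage had larger differences. Angptl4, an inhibitor of lipoprotein lipase, had 8.49, 8.39, 8.92, 8.31 and 8.18 against 4.23, 3.35, 3.68 and 4.21 and was 24.1-fold lower, and Plin2, which coats lipid droplets, was 10.2-fold lower (−3.35).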
